A study of Homo sapiens with 4 samples.

Results

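Integrin subunits are described here as 10 genes of A549 cells: ITGA2, ITGA3, ITGA5, ITGA6, ITGAV, ITGB1, ITGB4, ITGB5, ITGB6 and ITGB8. They are 10 of the 26255 gene symbols in each library and were found by their symbols. A549 is an established human lung adenocarcinoma cell line, labelled wild type. The cells grew for 5 days with 5% serum either on Matrigel, a gelled basement membrane extract (3D), or on a culture dish (2D). The 4 groups were 3D hypoxia (1% oxygen on Matrigel), 3D normoxia (Matrigel), 2D hypoxia (1% oxygen on a dish) and 2D normoxia (dish), and the oxygen level of normoxia is not given in the labels. Each group was 1 library, so differences between a pair of libraries have no replicate check and were read by size alone. The submitters set out to describe structures, abbreviated MLSs, that hypoxia induces in these cells.

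Integrins are cell surface receptors built from an α and a β subunit, and they tie the matrix outside the cell to the actin or keratin network inside it. Which matrix protein a receptor holds depends on the pair. ITGA2 with ITGB1 holds collagen, ITGA3 or ITGA6 with ITGB1 and ITGA6 with ITGB4 hold laminin, and ITGA5 with ITGB1 or ITGAV with a choice of β subunits holds proteins with an arginine-glycine-aspartate (RGD) motif, such as fibronectin and vitronectin. ITGB1 is the shared β subunit of all 3 classes. Laminin and type IV collagen are the main proteins of Matrigel.

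Values are FPKM, fragment counts divided by transcript length and library size, so levels may be set between genes of different length. The FPKM sums were 596102, 543547, 519824 and 473503 in 3D hypoxia, 3D normoxia, 2D hypoxia and 2D normoxia, and the depths estimated from the smallest steps in the values were 11.4, 11.8, 38.6 and 23.8, in units of 1000000 fragments. The hypoxia labels matched the data, since all 6 hypoxia check genes rose, with EGLN3, an oxygen-sensing prolyl hydroxylase, at 121.7 FPKM in 3D hypoxia against 9.28 FPKM in 3D normoxia, and at 48.1 FPKM in 2D hypoxia against 3.35 FPKM in 2D normoxia. The keratins KRT8 and KRT18 carried the summed epithelial markers, which came to 8316, 6150, 5205 and 7593 FPKM in the same order of libraries, while EPCAM lay between 1.43 and 2.73 FPKM. Of the 8 blood cell markers, 4 stayed below 1 FPKM, among them PTPRC (between 0 and 0.0168 FPKM) and CD3E (listed at 0 in all 4 libraries), while CD68 lay between 13.1 and 31.6 FPKM, CD14 between 3.44 and 11.4 FPKM and ITGB2 between 0.639 and 3.38 FPKM. All 5 endothelial markers were below 1 FPKM in every library.

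**Figure D1:**
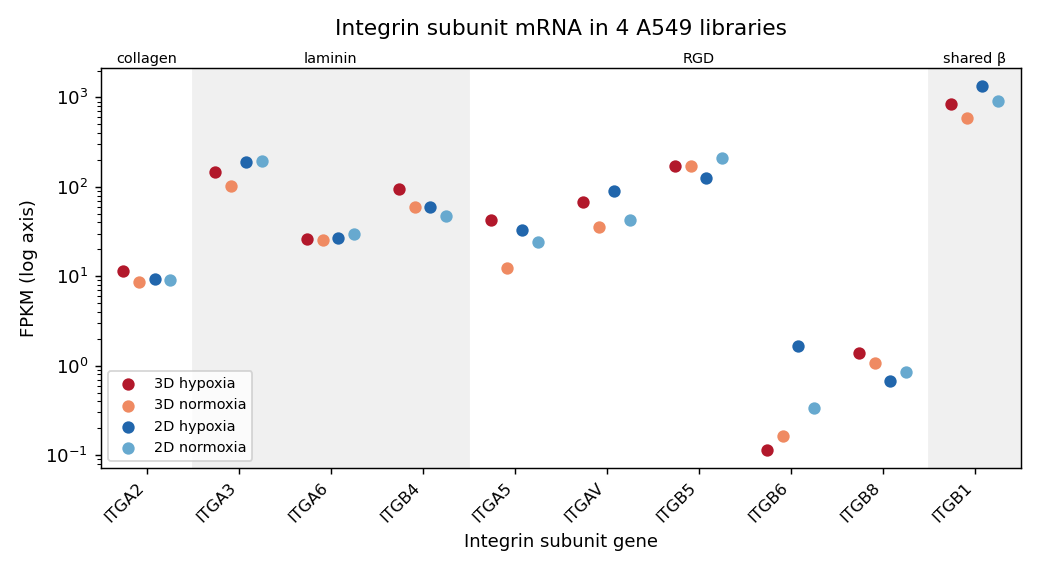
The level of each integrin subunit mRNA in FPKM (log axis) is plotted for each library, 1 point per library, grouped by the ligand the subunit binds. ITGB1 stands highest in all 4 libraries, from 593 to 1349 FPKM, and ITGB6 and ITGB8 stand lowest.

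The levels spanned about 4 orders of magnitude and kept much the same order in all 4 libraries. ITGB1, the shared β subunit, came first everywhere, with 847 FPKM in 3D hypoxia, 593 in 3D normoxia, 1349 in 2D hypoxia and 904 in 2D normoxia. It ranked 118, 141, 46 and 62 among the 12663 genes kept for testing. ITGB5 and ITGA3 held the next places, then ITGB4 and ITGAV, then ITGA6 and ITGA5, each pair with places that traded between libraries, and ITGA2 was eighth in all 4. ITGB6 and ITGB8 were last. With 1 library a group there is no spread between replicates to set neighbours in this order apart. Of the 10 members, 9 reached the mean of 1 FPKM that the test needed. ITGB8 passed barely, at a mean of 1.00 FPKM, and ITGB6, at a mean of 0.571 FPKM, was not tested.

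The average effect of hypoxia over both cultures was tested with limma on log2(FPKM + 1) across the 12663 genes, with Benjamini-Hochberg adjusted p below 0.05 as the threshold. Among the 9 members tested, 1 rose and none fell, against a background of 3.2% of all genes that rose and 1.64% that fell. The labels do not say whether separate experiments gave the libraries, and differences between these 4 libraries may be technical. Each gene has 1 residual degree of freedom, which is the difference between its hypoxia responses in 3D and 2D. The rest of the variance estimate is shared across genes (4.67 prior degrees of freedom of 5.67 in total). The p-values therefore do not measure spread between replicates. At the same average effect, a gene whose response differs more between cultures gets a larger p. In bulk RNA, fewer cells of a kind and less RNA per cell cannot be told apart.

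The RGD-binding subunits showed the largest hypoxia differences, in both directions. ITGAV, the α subunit of the vitronectin receptors, had 67.7 FPKM in 3D hypoxia against 36.0 FPKM in 3D normoxia, and 89.3 FPKM in 2D hypoxia against 42.7 FPKM in 2D normoxia. Both hypoxia libraries lay above both normoxia libraries, with no overlap. Among so few libraries such an order is a description, here and below, and the share of all genes with it was not counted. ITGAV rose by 0.97 ± 0.12 (log2 ± SE, limma adjusted p = 0.0205), although the adjusted p was 0.0531 with a pseudocount of 5 and 0.0992 with no filter on low values.

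ITGA5, the α subunit of the fibronectin receptor, had 42.2 FPKM in 3D hypoxia against 12.3 FPKM in 3D normoxia, and 32.7 FPKM in 2D hypoxia against 24.4 FPKM in 2D normoxia. On the log2(FPKM + 1) scale it was the member with the widest hypoxia difference in a single culture. In FPKM alone ITGB6 in 2D was wider, at 4.98-fold, from low levels given below. The log2 ratio of ITGA5 was 1.70 in 3D (3.42-fold in FPKM) against 0.41 in 2D. Both hypoxia libraries again lay above both normoxia libraries, but the average effect of 1.05 ± 0.29 missed the threshold (limma adjusted p = 0.103).

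ITGB5, a β partner of ITGAV, went another way. Its level was 170.5 FPKM in 3D hypoxia against 170.7 FPKM in 3D normoxia, and 125.4 FPKM in 2D hypoxia against 212.6 FPKM in 2D normoxia. The 3D libraries were alike, while in 2D the hypoxia library was the lower, with a log2 ratio of -0.76. The average effect was -0.38 ± 0.20 (limma adjusted p = 0.295).

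ITGB6 and ITGB8, β subunits whose receptors with ITGAV activate latent TGF-β, were scarce. ITGB6 had 0.115 FPKM in 3D hypoxia against 0.164 FPKM in 3D normoxia, and 1.67 FPKM in 2D hypoxia against 0.335 FPKM in 2D normoxia. The 2D hypoxia library stood above the other 3, at 4.98-fold the 2D normoxia level. These levels rest on an estimated 3.37, 4.99, 166 and 20.5 fragments in 3D hypoxia, 3D normoxia, 2D hypoxia and 2D normoxia, so the 3D values carry large counting errors. ITGB8 had 1.40 FPKM in 3D hypoxia against 1.08 FPKM in 3D normoxia, and 0.680 FPKM in 2D hypoxia against 0.853 FPKM in 2D normoxia. Its average hypoxia effect was 0.03 ± 0.20 (limma adjusted p = 0.942).

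Of the laminin-binding subunits, none passed the test for hypoxia. ITGB4, the β subunit that anchors hemidesmosomes to keratin, had 95.5 FPKM in 3D hypoxia against 59.3 FPKM in 3D normoxia, and 59.7 FPKM in 2D hypoxia against 47.8 FPKM in 2D normoxia. The 3D hypoxia library was the highest, and both hypoxia libraries lay above both normoxia libraries, narrowly. The average effect was 0.50 ± 0.14 (limma adjusted p = 0.104). GALK1 overlaps ITGB4 on the opposite strand and had 30.5, 35.8, 26.6 and 27.7 FPKM in 3D hypoxia, 3D normoxia, 2D hypoxia and 2D normoxia. Whether the authors counted by strand is unknown here, so ITGB4 values are uncertain. In GENCODE 29, genes on the opposite strand also overlap ITGAV, ITGA5, ITGB5, ITGB8, ITGA2, ITGA6 and ITGB1, no values of those genes were used here, and the same uncertainty holds for these members.

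ITGA3, which pairs with ITGB1 to bind laminin, had 146.7 FPKM in 3D hypoxia against 102.5 FPKM in 3D normoxia, and 191.5 FPKM in 2D hypoxia against 196.2 FPKM in 2D normoxia. It was higher in hypoxia in 3D and close to level in 2D, with log2 ratios of 0.51 and -0.03. ITGA6, the laminin-binding partner of both ITGB1 and ITGB4, was the flattest member at 26.3 FPKM in 3D hypoxia against 25.4 FPKM in 3D normoxia, and 26.7 FPKM in 2D hypoxia against 29.6 FPKM in 2D normoxia. Its highest library was only 1.17 times its lowest, and its average hypoxia effect was -0.05 ± 0.12 (limma adjusted p = 0.841).

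ITGA2, the only collagen-binding member, had 11.3 FPKM in 3D hypoxia against 8.52 FPKM in 3D normoxia, and 9.34 FPKM in 2D hypoxia against 9.17 FPKM in 2D normoxia. The 3D hypoxia library was highest by a small margin. The average effect of 0.20 ± 0.13 missed the threshold (limma adjusted p = 0.406).

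ITGB1, whose levels are given above, was higher in hypoxia than in normoxia within each culture, 1.43-fold in 3D and 1.49-fold in 2D. Across cultures the groups overlapped, since 3D hypoxia lay below 2D normoxia. The average effect of 0.55 ± 0.15 missed the threshold (limma adjusted p = 0.0973).

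**Figure D2:**
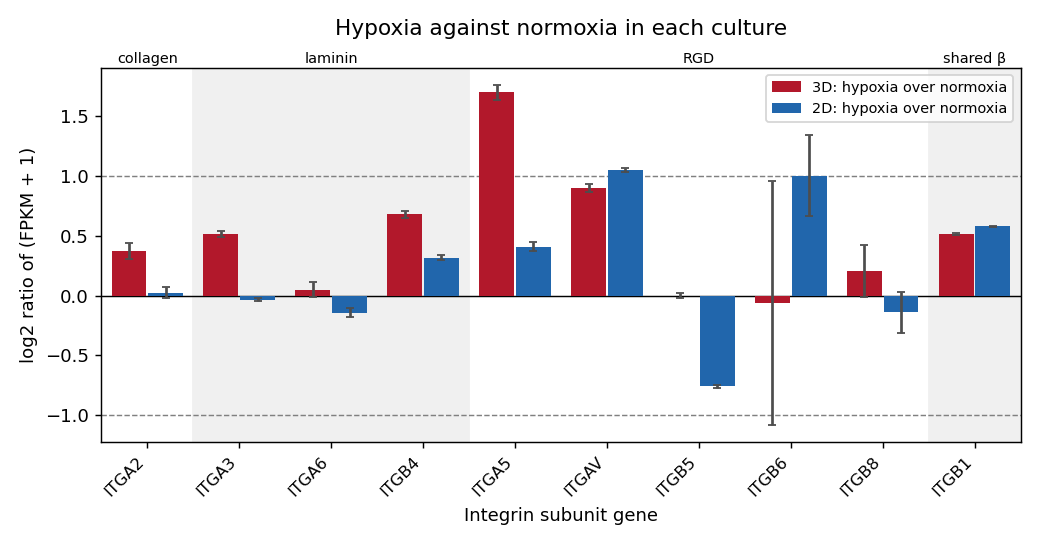
The log2 ratio of FPKM + 1 in hypoxia over normoxia is drawn for each subunit, with a bar each for 3D and 2D, lines of ± 1 counting error and dashed lines at 2-fold. ITGA5 in 3D, at 1.70, and ITGAV in 2D, at 1.05, pass the 2-fold line, and ITGB6 in 2D lies just under it.

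By size, 1 of the 9 members kept for testing differed at least 2-fold between 3D hypoxia and 3D normoxia, ITGA5, where 4.02% of all 12663 genes did. Between 2D hypoxia and 2D normoxia it was again 1, ITGAV, at a log2 ratio of 1.05, where 3.6% of all genes did. ITGAV lay just under 2-fold with a pseudocount of 5 (0.98) and with each library rescaled to a sum of 1000000 (0.92). The median log2 ratio of the 10 members, ITGB6 included, was 0.44 in 3D and 0.17 in 2D. Over the 12663 genes kept, which leave ITGB6 out, it was -0.02 and -0.0019. Over all 26 integrin subunits, including those too low to test, it was 0.02 in 3D and 0.02 in 2D. The 10 members were chosen with earlier results of these data known, so their medians do not stand for the whole family. By class, the laminin-binding subunits had a median of 0.51 in 3D and -0.03 in 2D. The RGD-binding subunits, ITGB6 included, had 0.20 in 3D and 0.41 in 2D. Their values ran from -0.06 to 1.70 in 3D and from -0.76 to 1.05 in 2D. The 3D median is the value of ITGB8 (counting error 0.22), and the order of 3D and 2D in this class turns if ITGB6 is left out.

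**Figure D3:**
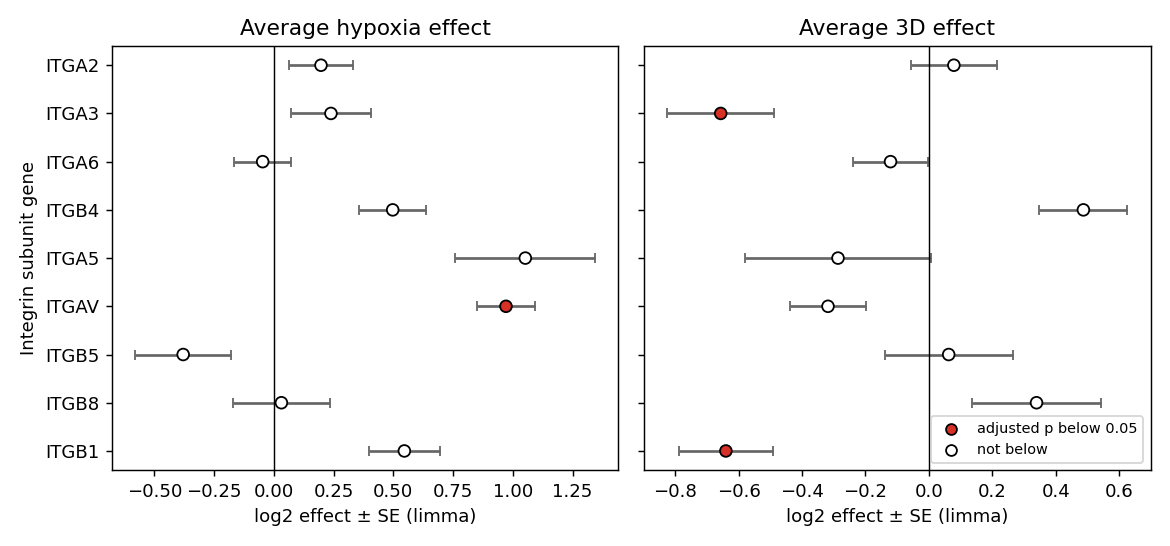
Average log2 effects with ± 1 SE from limma are shown for the 9 tested subunits, hypoxia on the left and 3D culture on the right, with filled points for adjusted p below 0.05. ITGAV is the filled point for hypoxia, and ITGA3 and ITGB1, both below 0, are the filled points for 3D.

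The promoters of the 3 members with the largest average hypoxia effects are printed to show the bases around their starts, each 250 bases before to 50 after the start. They come from RefSeq (GRCh38.p14, while the authors' build was hg19) and read 5′ to 3′ on the gene's strand. ITGAV is at chr2:186589806-186590105 (plus strand), ITGA5 at chr12:54419217-54419516 (minus strand) and ITGB1 at chr10:32958181-32958480 (minus strand). Capitals mark ACGTG or GCGTG, the core that HIF binds, on either strand, so that GCGTG on the opposite strand reads CACGC in these lines. None of the 3 promoters printed holds ACGTG on either strand.
ITGAV: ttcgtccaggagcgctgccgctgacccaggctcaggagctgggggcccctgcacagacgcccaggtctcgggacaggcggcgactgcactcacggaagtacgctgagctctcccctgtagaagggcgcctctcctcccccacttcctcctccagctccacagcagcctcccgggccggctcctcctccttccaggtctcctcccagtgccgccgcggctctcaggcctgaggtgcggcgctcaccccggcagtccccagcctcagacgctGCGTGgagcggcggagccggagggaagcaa
ITGA5: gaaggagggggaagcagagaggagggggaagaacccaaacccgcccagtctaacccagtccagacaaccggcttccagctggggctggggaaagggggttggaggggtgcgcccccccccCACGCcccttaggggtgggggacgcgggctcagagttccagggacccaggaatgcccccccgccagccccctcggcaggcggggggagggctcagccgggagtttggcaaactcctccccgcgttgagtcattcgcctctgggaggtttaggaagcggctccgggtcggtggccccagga
ITGB1: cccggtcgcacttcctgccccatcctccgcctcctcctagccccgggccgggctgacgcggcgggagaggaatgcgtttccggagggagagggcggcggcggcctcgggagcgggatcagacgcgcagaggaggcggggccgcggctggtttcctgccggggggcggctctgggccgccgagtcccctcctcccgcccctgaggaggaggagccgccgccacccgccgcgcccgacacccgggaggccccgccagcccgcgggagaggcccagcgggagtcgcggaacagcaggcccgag

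In the ITGAV promoter GCGTG lay 20 bases after the start, and in the ITGA5 promoter it lay on the opposite strand 130 bases before the start. The ITGB1 promoter printed had neither motif in this window. ITGAV and ITGB1 have further starts in the table. Of the members, 8 matched the table, with 13 promoter entries between them, and 8 of those entries (61.5%) held at least 1 of the motifs. Over all 35116 promoters of the table, 48.4% held either motif, 21.4% held ACGTG and 36.5% held GCGTG. A match is a description of the letters, not a site or a cause.

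The average effect of 3D culture over both oxygen levels was tested in the same limma fit. Among the 9 members tested, none rose and 2 fell, against a background of 10.4% of all genes that rose and 11.6% that fell. The pair that fell were ITGA3 and ITGB1, which together form the laminin receptor α3β1. ITGA3 had 146.7 FPKM in 3D hypoxia against 191.5 FPKM in 2D hypoxia, and 102.5 FPKM in 3D normoxia against 196.2 FPKM in 2D normoxia. Both 3D libraries lay below both 2D libraries, with no overlap. The average effect was -0.66 ± 0.17 (limma adjusted p = 0.0452), and the adjusted p was 0.0664 with a pseudocount of 5, 0.0667 with the libraries set to the same median, 0.0554 without the trend and 0.105 with no filter.

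ITGB1 had 847 FPKM in 3D hypoxia against 1349 FPKM in 2D hypoxia, and 593 FPKM in 3D normoxia against 904 FPKM in 2D normoxia. Both 3D libraries lay below both 2D libraries, by similar log2 ratios of -0.67 in hypoxia and -0.61 in normoxia. The average effect was -0.64 ± 0.15 (limma adjusted p = 0.0347), and the adjusted p was 0.138 with no filter.

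ITGB4 was higher in 3D than in 2D at each oxygen level, at 95.5 FPKM in 3D hypoxia against 59.7 FPKM in 2D hypoxia and 59.3 FPKM in 3D normoxia against 47.8 FPKM in 2D normoxia. The groups overlapped narrowly, and the average effect of 0.49 ± 0.14 lay just short of the threshold (limma adjusted p = 0.0570). ITGAV was lower in 3D at each oxygen level, with log2 ratios of -0.40 in hypoxia and -0.24 in normoxia (average -0.32 ± 0.12, limma adjusted p = 0.107). ITGA5 was higher in 3D in hypoxia and lower in 3D in normoxia, with log2 ratios of 0.36 and -0.93, and ITGB5 likewise, with 0.44 and -0.31. ITGB8 lay higher in both 3D libraries than in both 2D libraries, at an average of 0.34 ± 0.20 (limma adjusted p = 0.259). Both 2D libraries lay below 1 FPKM, so ITGB8 passed the filter through its 3D values. In normoxia its log2 ratio of 0.17 was smaller than its counting error of 0.21. ITGA2 and ITGA6 had average effects of 0.08 and -0.12, and neither passed the test.

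**Figure D4:**
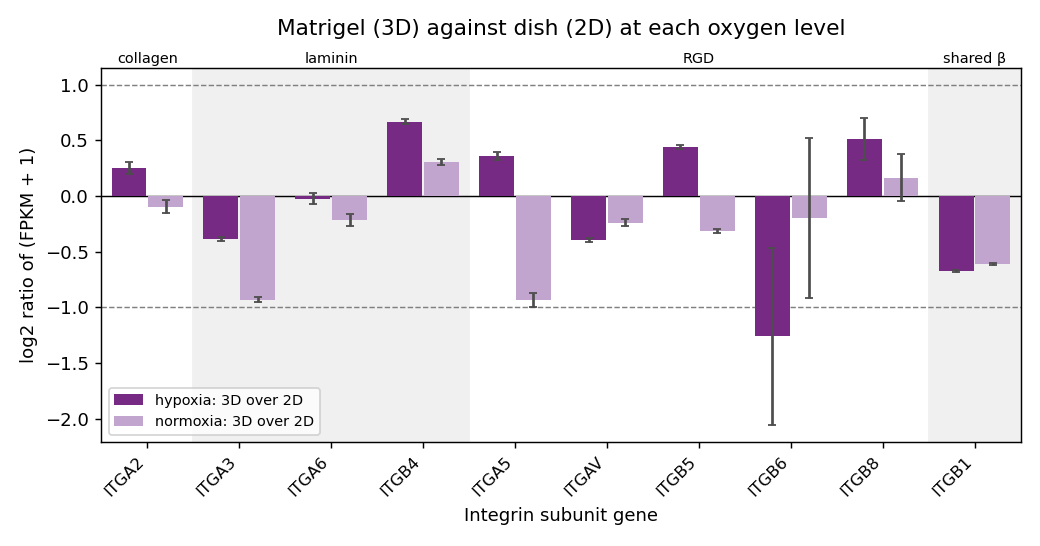
The log2 ratio of FPKM + 1 in 3D over 2D is drawn for each subunit, with a bar each for hypoxia and normoxia, lines of ± 1 counting error and dashed lines at 2-fold. ITGB6 in hypoxia, at -1.26, is past the 2-fold line, and ITGA3 and ITGA5 in normoxia, both at -0.93, lie just inside it.

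By size, none of the 9 members kept for testing differed at least 2-fold between 3D hypoxia and 2D hypoxia, where 6.82% of all genes did, nor between 3D normoxia and 2D normoxia, where 4.47% did. With each library rescaled to a sum of 1000000, ITGA3 (-1.13) and ITGA5 (-1.15) did pass 2-fold between 3D normoxia and 2D normoxia. ITGB6, outside those 9, was lower in 3D hypoxia than in 2D hypoxia (log2 ratio -1.26, counting error 0.79). The depths of these libraries, about 11.4 and 38.6 in units of 1000000 fragments, differed too.

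The hypoxia response in 3D less that in 2D was largest for ITGA5, at 1.29 on the log2 scale. Among the 9 members it was the only one at least 2-fold apart, where 2.73% of all genes were. ITGB6, not among the 9, had -1.06 (counting error 1.07). ITGB5 had 0.75 and ITGA3 had 0.55, whereas ITGB1, at -0.06, and ITGAV, at -0.15, had nearly the same response in each culture. The model has no replicate with which to test any of these differences.

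**Figure D5:**
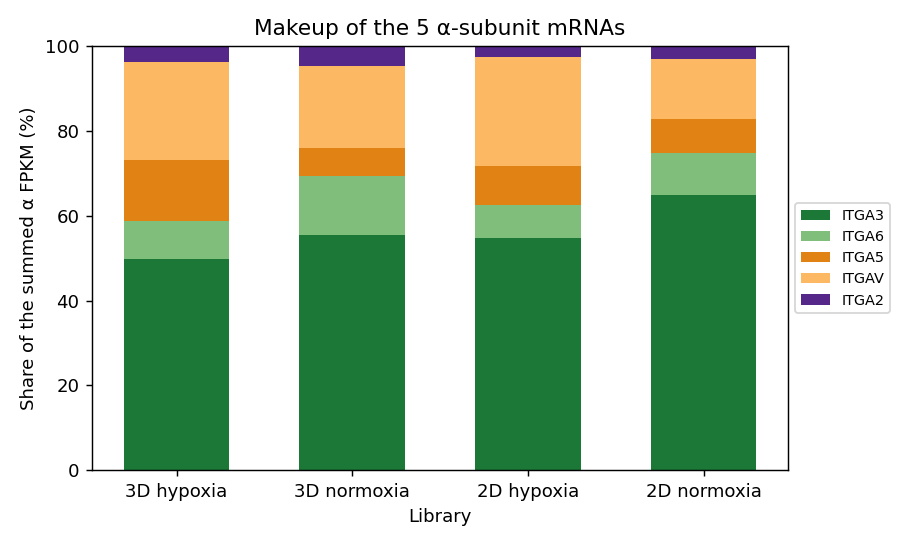
Each bar shows the share (%) of the summed FPKM of the 5 α subunits that each subunit held in a library. ITGA3 holds the largest share in all 4 libraries, from 49.9% to 65.0%.

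Levels of subunits that pair with each other were set side by side within a library. ITGA3 took 49.9% of the α subunit FPKM in 3D hypoxia against 55.5% in 3D normoxia, and 54.8% in 2D hypoxia against 65.0% in 2D normoxia. ITGAV took 23.0% in 3D hypoxia against 19.5% in 3D normoxia, and 25.5% in 2D hypoxia against 14.1% in 2D normoxia. ITGA5 took 14.3% in 3D hypoxia against 6.67% in 3D normoxia, and 9.35% in 2D hypoxia against 8.07% in 2D normoxia. The laminin α subunits thus held a smaller share, and the RGD α subunits a larger one, in each hypoxia library than in its normoxia partner. The ratio of ITGA5 plus ITGAV to ITGA3 plus ITGA6 was 0.635 in 3D hypoxia against 0.378 in 3D normoxia, and 0.559 in 2D hypoxia against 0.297 in 2D normoxia.

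The ratio of ITGB4 to its partner ITGA6 was 3.64 in 3D hypoxia against 2.34 in 3D normoxia, and 2.23 in 2D hypoxia against 1.61 in 2D normoxia. It was highest in 3D hypoxia and lowest in 2D normoxia. The ratio of ITGB5 to ITGAV was 2.52 in 3D hypoxia against 4.75 in 3D normoxia, and 1.40 in 2D hypoxia against 4.98 in 2D normoxia, the lower value falling in hypoxia each time. ITGB1 stood 2.88, 3.21, 3.86 and 2.99 times above the 5 α subunits together in 3D hypoxia, 3D normoxia, 2D hypoxia and 2D normoxia. These ratios are of mRNA and were not tested. Summed by class, laminin-binding subunits came to 268.5, 187.2, 278.0 and 273.6 FPKM and RGD-binding subunits to 281.8, 220.2, 249.7 and 280.8 FPKM in the same order. Both sums were lowest in 3D normoxia.

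Of the 16 other integrin subunits, 8 were tested. ITGA10, a collagen-binding α subunit, fell in hypoxia by 1.22 on the log2 scale (limma adjusted p = 0.0427), with 0.993 FPKM in 3D hypoxia against 4.87 FPKM in 3D normoxia, and 0.443 FPKM in 2D hypoxia against 1.68 FPKM in 2D normoxia. Both hypoxia libraries lay below 1 FPKM, so ITGA10 passed the filter through its normoxia values. Its call was lost with a pseudocount of 5, with libraries set to the same median and with no filter. ITGAX, a leukocyte α subunit, rose in 3D by 1.09 (limma adjusted p = 0.0421), with 2.91 FPKM in 3D hypoxia against 0.321 FPKM in 2D hypoxia, and 1.31 FPKM in 3D normoxia against 0.509 FPKM in 2D normoxia. Both 2D libraries lay below 1 FPKM, so ITGAX passed the filter through its 3D values, the group in which it was called higher. The ITGAX call was lost in the same settings as that of ITGA10. ITGB2, the leukocyte β subunit, had 2.25 FPKM in 3D hypoxia against 0.639 FPKM in 2D hypoxia, and 3.38 FPKM in 3D normoxia against 1.70 FPKM in 2D normoxia. It rose in 3D by 0.84 (limma adjusted p = 0.0267), and its antisense gene cannot be told apart from it without the strand setting. With no filter the ITGB2 call was lost. The summed blood cell markers, mostly CD68 and CD14, came to 45.3, 48.1, 17.98 and 33.96 FPKM in 3D hypoxia, 3D normoxia, 2D hypoxia and 2D normoxia, and their part in these results was not tested. CD68, a macrophage-associated gene that other cells also express, rose in 3D by 0.90. ITGA1, ITGA7, ITGA11, ITGAE, ITGAM and ITGB3 reached at least 1 FPKM in a library without a call, ITGB3 being untested.

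The matrix proteins that these receptors hold were counted by the same limma test, beside the 3.2% of all genes that rose and 1.64% that fell in hypoxia, and the 10.4% that rose and 11.6% that fell in 3D. The lists were chosen with earlier results of these data known, so the counts are no test against those shares. In hypoxia 1 of 7 tested collagen genes rose, COL5A1, by 1.83 (adjusted p = 0.0434). Of 7 laminin genes 2 rose, among them LAMB3, which encodes a laminin β chain, by 1.31 (adjusted p = 0.00811). LAMB3 had 32.6 FPKM in 3D hypoxia against 12.2 FPKM in 3D normoxia, and 22.7 FPKM in 2D hypoxia against 8.87 FPKM in 2D normoxia. Of 10 RGD ligand genes 2 rose, THBS1 by 1.10 (adjusted p = 0.0330) and CYR61 by 0.96 (adjusted p = 0.0404), both secreted matricellular proteins. No ligand gene fell in hypoxia.

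In 3D more ligand genes fell than rose. Of the collagen genes 5 of 7 fell and none rose. COL5A1 fell by 3.43, COL4A1 by 2.34 and COL4A2 by 1.84 on the log2 scale, the COL4 pair being chains of type IV collagen. COL1A1, also among the 5, had 0.614 FPKM in 3D hypoxia against 13.2 FPKM in 2D hypoxia. In normoxia it had 0.856 FPKM in 3D against 2.32 FPKM in 2D. It thus passed the filter through its 2D values, the group in which it was called higher. The summed fibroblast markers, carried by COL1A1, came to 0.796, 0.913, 14.4 and 2.79 FPKM in 3D hypoxia, 3D normoxia, 2D hypoxia and 2D normoxia, with 5 of the 6 markers below 1 FPKM throughout, and their part in the collagen counts was not tested. Of the laminin genes 4 of 7 fell, among them LAMC1, LAMB1 and LAMA3, and LAMB3 rose by 0.46. Of the RGD ligand genes 3 of 10 fell, THBS1, CYR61 and LTBP1, and FN1, which encodes fibronectin, rose by 1.498 on the log2 scale (adjusted p = 0.00913). FN1 had 474.5 FPKM in 3D hypoxia against 141.6 FPKM in 2D hypoxia, and 333.3 FPKM in 3D normoxia against 138.7 FPKM in 2D normoxia.

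Among 20 genes for talin, kindlin and adhesion adaptors, which couple integrin tails to actin, 4 rose in hypoxia and none fell, where 3.2% and 1.64% of all genes did. They were TNS1, VCL, ZYX and FLNA, with log2 effects of 2.19, 0.92, 0.82 and 1.11. TNS1 had 6.68 FPKM in 3D hypoxia against 0.507 FPKM in 3D normoxia, and 8.25 FPKM in 2D hypoxia against 1.25 FPKM in 2D normoxia. Its normoxia values average below 1 FPKM, so TNS1 passed the filter through its hypoxia values, the group in which it was called higher. The lists in this paragraph were likewise chosen with earlier results known, so their counts are a description only. In 3D, 9 of the 20 fell and 4 rose, where 11.6% and 10.4% of all genes did. Those with the smallest p were VCL, which encodes vinculin (-1.49), ACTN1, which encodes an α-actinin (-1.14), FLNA, an actin crosslinker (-1.39), and TLN2, a talin (-0.89). The 4 that rose, named after their values were seen, were PARVA, PARVB, LIMS1 and SRC. Of 6 hemidesmosome and laminin receptor partners none passed the test in hypoxia (largest RPSA, 0.71, adjusted p = 0.0792), and 4 fell in 3D, DST, DAG1, PLEC and CD151, of which PLEC encodes plectin, the linker between ITGB4 and keratin. Of 4 integrin inactivators none passed either test (largest in hypoxia ITGB1BP1, 0.42, adjusted p = 0.127). The collagen receptor DDR1 had 0.38 in hypoxia and -0.25 in 3D and passed neither. Of 6 trafficking genes none passed in hypoxia (largest RAB11FIP1, 0.55, adjusted p = 0.0592), and in 3D RAB11A and RAB21 rose and CLTC fell. Of the 10 calls in hypoxia among the ligand, adaptor, partner, trafficking and other integrin lists, 2 held with a pseudocount of 5, 5 with libraries set to the same median, 6 without the trend and none with no filter. COL5A1, THBS1, CYR61 and FLNA lost their calls in all 4 of these settings. Of the 36 calls in 3D, 29 held with a pseudocount of 5, 33 with the same median, 31 without the trend and none with no filter.

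For the members whose levels spanned at least 1 on the log2 scale, the genes with the most similar 4-library pattern were named by the root mean square distance of their log2 values. They were DSP, GPRIN2 and ANXA3 for ITGA5 (0.0685, 0.0872 and 0.0970), UGCG, H1F0 and TES for ITGAV (0.0289, 0.0312 and 0.0461) and USP53, TIMP2 and TANC2 for ITGB1 (0.0191, 0.0490 and 0.0515). The match is over 4 libraries and is a description only. None is given for ITGB6, since the pseudocount compresses its low values and its 3D levels rest on few fragments.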

How the data were processed

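RNA from each of the 4 A549 cultures was extracted with the miRNeasy Micro kit and sequenced from TruSeq Stranded mRNA libraries, per the labels' protocols. The submitters' processing notes name TopHat2 (2.1.1), Bowtie2 (2.2.8), SAMtools (0.1.18), hg19 as the build and Cuffdiff (2.2.1). The authors deposited FPKM values, 1 for each gene symbol in each library. For annotation, scaling and strand setting, the sources used here give nothing.

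The scale was log2(FPKM + 1), which understates changes of low genes; genes averaging 1 FPKM or more (12663) were kept. limma (3.58.1, R 4.3.3) estimated average oxygen and culture effects from additive terms with trend and 1 residual degree of freedom, adjusted by Benjamini-Hochberg at 0.05. Versions elsewhere were Python 3.11.15, pandas 2.3.3, numpy 2.4.6 and matplotlib 3.10.9. Depth was read from the commonest smallest FPKM times length over 2134 single-transcript genes of GENCODE 29, so counting errors are estimates that cover counting only. Tested on simulated data for average hypoxia (12663 genes, 200 altered), the share found was 76.2% at 2-fold and 98.9% at 4-fold, and false calls averaged 15.1. Each altered gene was given the same effect in both cultures, with noise drawn from the fitted variance model. These shares therefore do not cover genes whose response differs between cultures. The text names all 10 members, other integrin subunits with at least 1 FPKM in a library, up to 4 called genes per list and effect by smallest p (otherwise the largest effect), and the 3 genes nearest in pattern to members spanning at least 1 on the log2 scale, from genes averaging at least 5 FPKM. One gene that meets this rule is not reported here. Members and lists were chosen with earlier results of these data known. Alternatives tried were pseudocounts of 0.1 and 5, no filter, a minimum mean of 5 FPKM, 2 rescalings and limma without trend.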

Additional observations from a re-analysis of the deposited data

Results flagged for a closer look

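In 4 members the hypoxia library lay above normoxia in one culture and below it in the other, by any size, and the difference was not tested because each group is 1 library. The 3D minus 2D difference of the log2 responses was 0.55 for ITGA3, 0.19 for ITGA6, -1.06 for ITGB6 and 0.35 for ITGB8. The 3D response of ITGA6, 0.05, was smaller than its counting error of 0.063. Both responses of ITGB8 lay within their counting errors, at 0.20 in 3D (counting error 0.22) and -0.14 in 2D (counting error 0.17). Which members moved in opposite directions depended on the scaling. With each library rescaled to a sum of 1000000, ITGA6 was below normoxia in both cultures (-0.08 in 3D) and ITGA2 was below it in 2D (-0.10), and with libraries set to the same median ITGB5 in 3D was 0.0002, against -0.0019 as deposited. The ITGB6 value rests on few fragments in the 3D libraries, and its counting error was 1.07.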

How the results depend on the processing

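Over all genes, the calls for hypoxia numbered 613 (405 up, 208 down). They numbered 126 with a pseudocount of 5, 5 with no filter on low values (3589 at an unadjusted p below 0.05), 304 with libraries set to the same median and 366 without the trend. For 3D the 2785 calls became 3 with no filter (5630 unadjusted). With each library rescaled to a sum of 1000000, the median of all genes was -0.14 for hypoxia (otherwise -0.01) and -0.21 for 3D (otherwise -0.03), and calls became 303 up and 475 down for hypoxia and 767 up and 3132 down for 3D. The 10 integrin subunits' count for hypoxia, 1, became 0 with a pseudocount of 5 and 0 with no filter. Their count for 3D, 2, became 1 with a pseudocount of 5, with the same median and without trend (ITGB1 kept its call in each), and 0 with no filter. With the sum of 1000000, ITGAV also fell in 3D, by 0.52 (limma adjusted p = 0.0293). The 3 subunit pair differences of at least 2-fold became 1 with a pseudocount of 5 (ITGA5) and 5 with the sum of 1000000 (ITGAV lost its place in both), and the 2 differences of response became 1 with a pseudocount of 5. Average effects whose sign turned with the sum of 1000000 were ITGB8 for hypoxia (-0.058), ITGA2 for 3D (-0.11), ITGB5 for 3D (-0.13) and ITGAE for hypoxia (-0.030); none of these was called. Single pairs that turned were ITGA6 for hypoxia in 3D (-0.08) and ITGA2 for hypoxia in 2D (-0.10) with the sum of 1000000, and ITGB5 for hypoxia in 3D (0.0002) and ITGA6 for 3D in hypoxia (0.02) with the same median. The cause was not tested. No paired analysis was possible because each group is 1 library with no replicate numbers to pair, beyond the culture term, which already sets hypoxia against normoxia within each culture. Leaving out a library leaves no residual degree of freedom, so that was not run. Depth limits ITGB6 and ITGB8 most.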
